A study of Mus musculus with 4 samples.

Results

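The genes described here are the numbered Zfp genes of the mouse that were expressed in embryonic stem cells and that are not ZFP57 itself. They were chosen by name and level: every gene whose symbol is Zfp followed by a number, without Zfp57, Zfp42, Zfp352 and Zfp473, that reached 1 read per 1000000 reads (RPM) in at least 1 library of each of 2 cell lines. This gave 320 genes, called the members below, of 367 such Zfp genes and of 26130 genes in all. They carry 319 different symbols, because Zfp708 stands in 2 rows. The same level was reached by 11890 genes, called the measured genes.

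The libraries came from mouse embryonic stem cells of 2 lines, E14 of strain 129P2/OlaHsd and the JB1 line of strain JF1/B6. Each line was sequenced as wild type and as Zfp57-/-, with 1 library for each, so 4 libraries in all. All lines were kept feeder-free on gelatin, with serum and leukemia inhibitory factor, and polyadenylated RNA was sequenced with a stranded kit. The labels do not say how the gene was disrupted or whether a knockout line is 1 clone. With 1 library per group no test within a line was possible, and the intervals given below cover counting error only.

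Most Zfp genes encode proteins with a row of C2H2 zinc fingers, each of which holds a zinc ion and reads a few bases of DNA. Many also carry a KRAB domain, which binds the corepressor KAP1 (Trim28), and KAP1 in turn brings the histone methyltransferase SETDB1, HP1 proteins and DNA methylation to the bound site. In embryonic stem cells this family is known for silencing retroelements, and ZFP57 for keeping DNA methylation on imprinting control regions. ZFP57 reads the hexamer TGCCGC when its CpG is methylated. Families of KRAB zinc finger genes arose by local duplication and lie side by side in clusters.

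The promoters of 5 members are printed to show what lies at the start of genes whose RNA was lower in both knockout libraries, with and without that hexamer. Zfp101, Zfp329 and Zfp68 were among the first 10 members lower in both lines, ranked by the smaller of their differences. Zfp763 and Zfp81 lie in the same cluster on chromosome 17 as Zfp101, and their windows hold the hexamer. Each window runs from 250 bases before to 50 bases after the annotated start in RefSeq (build GRCm38.p6), minus strand of the chromosome, read 5′ to 3′ along the gene. Capitals mark TGCCGC. It was searched on both strands (TGCCGC or GCGGCA). The windows are chr17:33394588-33394887 (Zfp101), chr7:12818811-12819110 (Zfp329), chr5:138619694-138619993 (Zfp68), chr17:33033332-33033631 (Zfp763) and chr17:33358829-33359128 (Zfp81).
Zfp101: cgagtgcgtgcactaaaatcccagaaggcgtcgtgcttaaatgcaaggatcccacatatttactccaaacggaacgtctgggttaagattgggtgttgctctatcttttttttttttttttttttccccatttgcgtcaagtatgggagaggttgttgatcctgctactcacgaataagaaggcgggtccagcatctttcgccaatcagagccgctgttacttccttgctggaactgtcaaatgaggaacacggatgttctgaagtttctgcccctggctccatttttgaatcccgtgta
Zfp329: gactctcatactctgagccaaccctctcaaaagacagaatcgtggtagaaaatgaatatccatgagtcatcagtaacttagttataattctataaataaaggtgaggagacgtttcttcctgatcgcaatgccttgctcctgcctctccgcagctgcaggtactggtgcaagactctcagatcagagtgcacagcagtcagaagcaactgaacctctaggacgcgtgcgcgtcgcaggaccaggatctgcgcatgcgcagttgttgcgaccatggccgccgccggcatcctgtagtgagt
Zfp68: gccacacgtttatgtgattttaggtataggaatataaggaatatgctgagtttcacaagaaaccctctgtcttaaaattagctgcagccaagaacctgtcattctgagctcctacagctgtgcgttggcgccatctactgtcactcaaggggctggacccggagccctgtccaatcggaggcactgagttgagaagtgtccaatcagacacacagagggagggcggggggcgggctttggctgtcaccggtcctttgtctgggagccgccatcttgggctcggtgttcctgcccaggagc
Zfp763: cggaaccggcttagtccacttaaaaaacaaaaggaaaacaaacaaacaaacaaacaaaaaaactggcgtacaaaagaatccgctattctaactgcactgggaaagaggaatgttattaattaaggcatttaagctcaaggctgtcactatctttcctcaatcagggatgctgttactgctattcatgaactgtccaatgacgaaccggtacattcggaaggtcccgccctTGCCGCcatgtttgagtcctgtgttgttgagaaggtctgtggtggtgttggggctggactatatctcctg
Zfp81: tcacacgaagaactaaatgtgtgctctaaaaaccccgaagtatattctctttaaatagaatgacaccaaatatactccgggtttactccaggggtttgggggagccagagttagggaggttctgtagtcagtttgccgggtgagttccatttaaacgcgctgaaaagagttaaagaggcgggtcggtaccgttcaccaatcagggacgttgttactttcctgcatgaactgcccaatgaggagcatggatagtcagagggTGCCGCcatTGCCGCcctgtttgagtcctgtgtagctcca
The windows of Zfp101, Zfp329 and Zfp68 hold 0 copies, that of Zfp763 1 copy and that of Zfp81 2 copies. Zfp763 and Zfp81 share a run of 16 identical bases just after the hexamer, tgtttgagtcctgtgt, the longest run shared by any pair of these 5 windows, where the other pairs share 7 to 10 bases.

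Over all members, 263 of 320 had a promoter entry, and 50 of them (19.0%) held the hexamer. Among measured genes with an entry it was found in 2207 of 9475 (23.3%), and among all 32851 windows of the RefSeq table in 3813 (11.6%). A difference below is log2((knockout RPM + 1)/(wild-type RPM + 1)) within a line. Its median was -0.16 in E14 and -0.15 in JB1 over the 50 members with the hexamer, and -0.13 and -0.15 over the 213 without it. A match is a string of letters, and whether ZFP57 was bound there was not measured.

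The listed genes held 26801865 reads in the shallowest library (E14 wild type) and 66849394 in the deepest (JB1 knockout), and 1 RPM stood for 50.5 to 97.0 reads. Zfp57 was at 135 RPM (wild type) and 51.8 RPM (knockout) for E14, which is 2.60-fold lower with a 95% interval of 2.50 to 2.71. For JB1 the values were 796 and 42.9 RPM, or 18.5-fold lower (17.97 to 19.1). All 8 embryonic stem cell markers on the list were above 1 RPM in all 4 libraries, and their summed level was 3016 RPM (wild type) and 2732 RPM (knockout) for E14, then 4413 and 3497 RPM for JB1. The 8 fibroblast or feeder markers summed, in the same order, to 16.6, 29.8, 14.7 and 50.95 RPM. Vim was the largest part of each sum (15.0, 27.6, 7.05 and 37.4 RPM). In JB1 Col1a1 was at 3.67 and 5.19 RPM and Thy1 at 3.61 and 7.95 RPM. The primitive endoderm list summed to 9.87, 7.46, 36.0 and 45.8 RPM, the trophoblast list to 5.94, 8.23, 14.05 and 22.99 RPM, and the neuroectoderm list to 45.8, 58.2, 24.3 and 26.6 RPM. The mesoderm list summed to 2.08, 2.19, 1.78 and 2.22 RPM. The fibroblast, trophoblast, neuroectoderm and mesoderm sums were thus higher in the knockout library of both lines, and the stem cell sum was lower in both. Single genes carried much of some sums. Tubb3 led the neuroectoderm list (33.1 and 45.9 RPM in E14, 17.3 and 20.3 RPM in JB1). Pax6 was lower in the E14 knockout and Neurod1 in that of JB1. In JB1 Krt8 was at 5.79 and 13.96 RPM and Gata3 at 4.23 and 3.165 RPM. Of the 8 stem cell markers 1 was higher in the E14 knockout and 2 in JB1, with Utf1 at 61.4 and 169.9 RPM there. On the mesoderm list 1 gene reached 1 RPM in each E14 library and 0 in JB1. The part of these marker levels in the differences of the members was not tested. The libraries are bulk RNA, in which fewer cells of a type and less RNA per cell cannot be told apart.

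Nearly all members were expressed in every library. In E14 308 of 320 reached 1 RPM in both libraries, 8 only in the wild type and 4 only in the knockout. In JB1 the numbers were 317, 2 and 1. A member seen at 1 RPM in only 1 library of a line was bound to differ there. Just inside the level rule were Zfp202 at 1.01 RPM, Zfp658 at 1.02 RPM and Zfp362 at 1.05 RPM in the library that let them in. Just outside were Zfp454 at 0.971 RPM and Zfp712 at 0.891 RPM. In the order E14 wild type, E14 knockout, JB1 wild type, JB1 knockout, the median member was at 9.52, 8.67, 13.8 and 12.2 RPM. Summed, the members held 7304, 6818, 8740 and 8078 RPM, so the sum was lower in the knockout library of both lines.

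The members stood slightly lower in the knockout library of both lines, in small steps spread over most of the family. In E14, 226 of 320 members (70.6%) were lower in the knockout, against 46.6% of the measured genes, and the median difference was -0.13 against 0.02 for all measured genes. In JB1 231 members (72.2%) were lower, against 50.1% of the measured genes, with a median of -0.15 against -0.00. Lower in both lines were 171 members (53.4%), where 27.4% of the measured genes were. Higher in both were 34 members (10.6%), where 30.6% of the measured genes were. No test over the set of members was made, so these shares describe the 4 libraries.

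**Figure D1:**
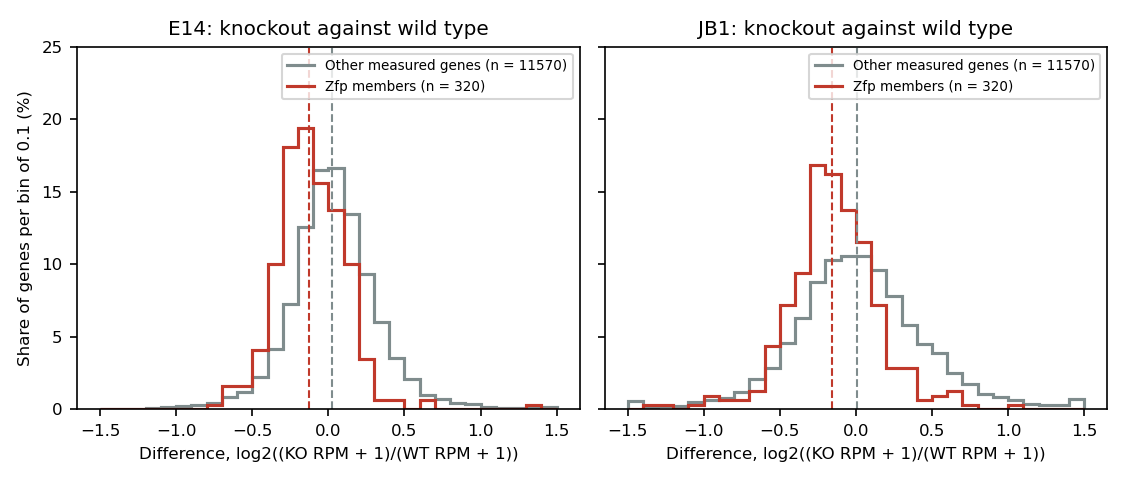
Distribution of the knockout difference, log2((KO RPM + 1)/(WT RPM + 1)), in bins of 0.1, as the share of genes in each bin for the 320 members (red) and the 11570 other measured genes (grey) in E14 and JB1. Dashed lines are medians (members -0.13 and -0.15), and genes beyond 1.5 in size are counted in the end bins. The members' curve lies to the left of the other genes in both lines.

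Few members differed by a large factor. Past 2-fold on the log2(RPM + 1) scale, 1 member was higher in the E14 knockout (Zfp629) and 0 were lower, where 0.479% and 0.235% of the measured genes were called. Zfp629 reached 1 RPM in E14 only in the knockout library, so the level rule fixed its direction there. In JB1 1 member was higher (Zfp532) and 3 were lower (Zfp238, Zfp711 and Zfp296), where the background was 2.17% and 1.61%. At 1.5-fold, 3 members were higher and 6 lower in E14, against 3.12% and 2.19% of the measured genes. In JB1 8 were higher and 18 lower, against 8.65% and 6.51%. In both directions and lines, at most 18 of 320 members were past 1.5-fold, a share near or below that of the measured genes.

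A genotype effect common to the lines was sought with limma, which had 1 residual degree of freedom per gene. All 320 members were among the 12644 genes tested and none passed. The lowest Benjamini-Hochberg adjusted p of limma was 0.623, for members as for all genes, and 0% of all genes were called. At an unadjusted limma p under 0.05, 15 members were lower and 1 was higher, beside 2.94% and 5.01% of all genes tested. The fitted shared difference was below 0 for 244 members, with a median of -0.13 against 0.01 for all genes tested. Zfp101 had the lowest unadjusted p among the members, 0.0071, with a fitted difference of -0.63 (SE 0.16) and an adjusted p of 0.623 in limma.

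Members with a KRAB-like stretch were lower in E14 in a larger share than those without. Among members of like GC content below 50% that share was not larger, while the medians went both ways. A stretch resembling the KRAB A box was found in the longest reading frame of 173 members, which held 2 to 33 fingers with a median of 12. A further 133 members had 1 to 36 fingers, with a median of 7, and no such stretch. Another 10 had no finger of the pattern searched, and 4 had no matched transcript. Of the 173 KRAB-like members 136 (78.6%) were lower in E14 and 129 (74.6%) in JB1, with medians of -0.16 and -0.14. Of the 133 without, 81 (60.9%) were lower in E14 and 94 (70.7%) in JB1, with medians of -0.07 and -0.17. The medians of the groups stood apart in E14 and lay close in JB1, and the difference between the groups was not tested. The groups also differed in median transcript GC, 41.9% with the stretch and 49.75% without. Under 42% GC, 73 of 88 members with the stretch were lower in E14 and 21 of 25 of all other members. From 42 to 46% the numbers were 29 of 38 and 15 of 19, and from 46 to 50% 17 of 22 and 23 of 29, so the share was slightly higher without the stretch in these 3 bands. At 50% or more it was 17 of 25 with the stretch and 29 of 70 without. The E14 median was lower with the stretch from 42 to 46% (-0.18 against -0.08) and from 46 to 50% (-0.16 against -0.09). It was also lower at 50% or more (-0.05 against 0.04), but not under 42% (-0.18 against -0.20). Lower in both lines were 103 KRAB-like members (59.5%) and 63 (47.4%) of the others. A transcript model may lack the KRAB exon, so a stretch that was not found may still exist.

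Among KRAB-like members, the medians by finger number lay close together. The 15 with at most 7 fingers had medians of -0.21 in E14 and -0.10 in JB1. The 81 with 8 to 12 fingers had -0.16 and -0.12, and the 77 with 13 or more had -0.15 and -0.17. Measured genes outside the members with KRAB-like and finger patterns numbered 85, and Zfp57 itself was among them. Of these, 54 (63.5%) were lower in each line, with medians of -0.04 and -0.09. The 149 other measured genes with 3 or more fingers and no KRAB-like stretch were lower in 84 (56.4%) in E14 and in 100 (67.1%) in JB1, with medians of -0.05 and -0.16. Zfp42, Zfp352 and Zfp473, left out of the members, were among these 149. In JB1 the values of the 149 lay close to the members' -0.15 and 72.2%. In E14 both groups of other genes were nearer to 0 than the members' -0.13. The differences between these groups were not tested.

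Members on a list drawn up for imprinted regions, retroelements and heterochromatin were lower in about the same share as all members, by small factors. A role there was not checked for each gene on it. Of 15 measured rows on this list 11 (73.3%) were lower in E14 and 11 in JB1 (9 in both), beside 70.6% and 72.2% of all members and 46.6% and 50.1% of the measured genes, with medians of -0.13 and -0.25, and 2 were higher in both. Zfp445, which acts beside ZFP57 at imprinting control regions, was at 48.8 and 42.3 RPM in E14 (wild type first, here and below) and at 62.6 and 43.2 RPM in JB1. It was 1.15-fold lower in E14 (95% interval 1.09 to 1.22) and 1.45-fold lower in JB1 (1.39 to 1.51), so neither knockout library had more of it. Its unadjusted limma p was 0.064.

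Zfp568, which represses a placental promoter of Igf2, took the most reads of all members in E14. It was at 389 and 449 RPM there and at 337 and 280 RPM in JB1. The direction was opposite in the lines, 1.16-fold higher in E14 (1.14 to 1.18) and 1.21-fold lower in JB1 (1.18 to 1.23). Zfp809, which initiates silencing of murine leukemia virus-type elements, was at 9.17 and 8.46 RPM in E14 and at 16.3 and 12.6 RPM in JB1. It was lower in both knockout libraries, 1.08-fold with an interval that spans 1 in E14 (0.958 to 1.23) and 1.30-fold in JB1 (1.20 to 1.41). Zfp932 stood at 32.3 and 32.2 RPM in E14 and at 43.1 and 43.1 RPM in JB1, the same in both genotypes within counting error.

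Zfp961 was the clearest member of this list in the other direction. It was at 44.6 RPM in E14 wild type and 51.5 in the knockout, 1.16-fold higher (1.09 to 1.22), and at 63.7 and 82.0 RPM in JB1, 1.29-fold higher (1.24 to 1.34). Zfp266 was at 64.9 and 51.2 RPM in E14 and at 64.4 and 44.8 RPM in JB1, lower by 1.27-fold and 1.44-fold. Zfp91, a ubiquitin ligase with zinc fingers, was at 114 and 100.0 RPM in E14 and at 74.6 and 65.1 RPM in JB1, a difference of -0.19 in each line. Zfp597 was at 12.8 and 11.9 RPM in E14 and at 15.0 and 9.89 RPM in JB1. The remaining rows of the list lay between -0.32 and 0.14 in E14 and between -0.59 and 0.58 in JB1.

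**Figure D2:**
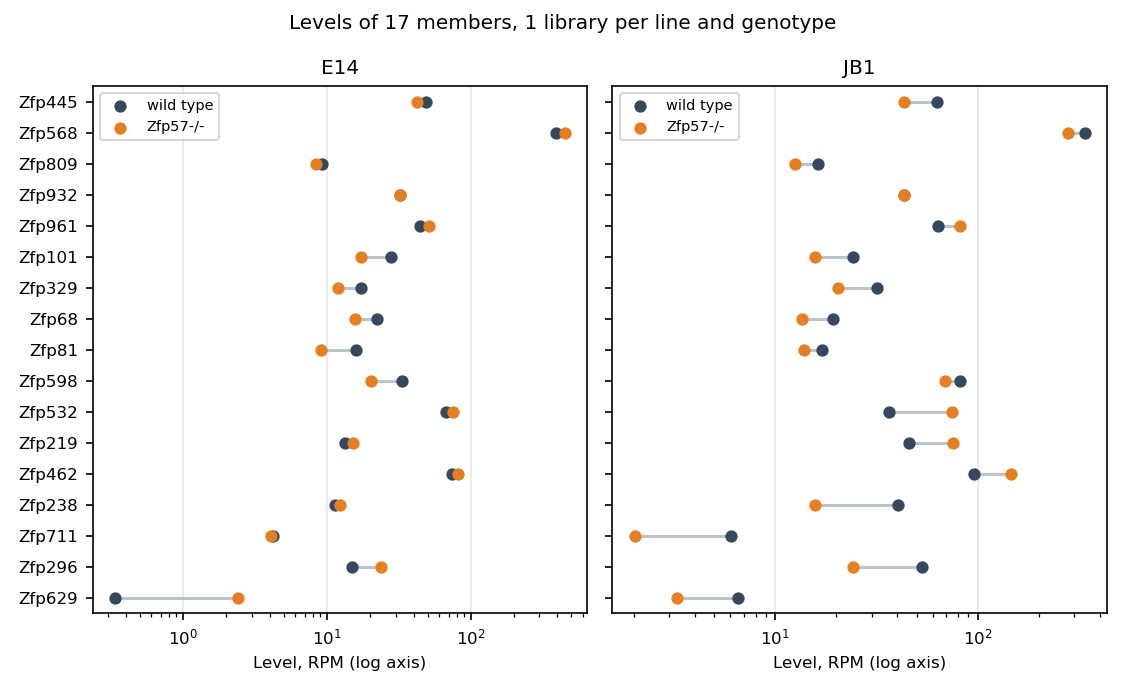
Levels of 17 members in RPM on a log axis, 1 point per library, wild type dark and Zfp57-/- orange, E14 left and JB1 right. Zfp101, Zfp329, Zfp68, Zfp81 and Zfp598 lie lower in both knockout libraries, Zfp532, Zfp219, Zfp462 and Zfp961 lie higher in both, and Zfp629 (0.337 and 2.41 RPM in E14, 6.53 and 3.28 in JB1) and Zfp296 change side between the lines.

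Members with a role in stem cells or development held all of the JB1 differences past 2-fold. Of 28 measured 15 (53.6%) were lower in E14 and 20 (71.4%) in JB1, 13 in both, with medians of -0.03 and -0.25. The list was drawn up with these differences known, so its share of them is no independent evidence. Zfp238 (now Zbtb18), a transcriptional repressor needed in brain development, was at 11.4 and 12.4 RPM in E14 and at 40.6 and 15.8 RPM in JB1, 2.58-fold lower there (2.42 to 2.74). It lies on chromosome 1 from 179374792 to 179380891 (mm9), in the distal stretch beyond 140 Mb. The 224 other measured genes there had a JB1 median of -0.33, and 181 of them were lower, while the 430 on the rest of the chromosome had a median of -0.02. Zfp711, an X-linked factor that binds promoters, was at 4.24 and 4.12 RPM in E14 and at 6.06 and 2.03 RPM in JB1, 2.98-fold lower (2.51 to 3.55).

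Zfp532 was the only member past 2-fold higher in JB1. It was at 67.2 and 75.4 RPM in E14 and at 36.4 and 74.6 RPM in JB1, 1.12-fold (1.07 to 1.17) and 2.05-fold higher (1.96 to 2.15). Its JB1 wild type library stood apart, and the other libraries lay between 67.2 and 75.4 RPM. Zfp219, a partner of SOX9 in cartilage, was at 13.4 and 15.3 RPM in E14 and at 45.7 and 75.7 RPM in JB1, higher in both. Zfp462, a large protein that maintains pluripotency and heterochromatin, was at 74.3 and 82.0 RPM in E14 and at 96.3 and 145 RPM in JB1, higher in both. Zfp423 was at 10.5 and 10.8 RPM in E14 and at 15.4 and 24.2 RPM in JB1, where it was 1.57-fold higher (1.46 to 1.69).

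Of the other regulators on this list named here, 2 differed by at most 0.17 in size in each line and 4 were lower by more in both lines. Zfp281, a repressor of Nanog, was at 123 and 138 RPM in E14 and at 194 and 193 RPM in JB1, a difference of 0.17 in E14 and close to 0 in JB1. Zfp143, which binds housekeeping promoters and loop anchors, was at 21.3 and 20.96 RPM in E14 and at 27.7 and 24.7 RPM in JB1. Zfp217 was at 67.3 and 52.5 RPM in E14 and at 107 and 74.8 RPM in JB1, lower in both by 1.28-fold and 1.43-fold. Zfp292 was at 207 and 159 RPM in E14 and at 101 and 82.0 RPM in JB1, also lower in both. Zfp148 and Zfp322a were lower in both lines as well, with differences of -0.20 and -0.50 and of -0.28 and -0.42.

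Members that bind RNA or act in the cytoplasm had medians close to those of all genes. Of 17 measured 10 were lower in E14 and 8 in JB1, 3 in both, with medians of -0.01 and 0.02. Zfp598, an E3 ubiquitin ligase that marks collided ribosomes, was the only one past 1.5-fold, in E14. It was at 33.1 and 20.1 RPM in E14 and at 82.1 and 69.1 RPM in JB1. It was 1.64-fold lower in E14 (1.53 to 1.77) and 1.19-fold lower in JB1 (1.15 to 1.23). Zfp385a had a difference of 0.35 in E14, and Zfp706 and Zfp318 had 0.30 each in JB1. The mRNA decay factors Zfp36, Zfp36l1 and Zfp36l2 had differences of 0.12, 0.05 and -0.05 in E14 and of -0.05, -0.19 and 0.05 in JB1. Zfp106 was at 306 and 298 RPM in E14 and at 457 and 487 RPM in JB1, and Zfp207, a spindle checkpoint factor, was at 205 and 186 RPM and at 204 and 198 RPM.

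Members lower in both lines were ranked by the smaller in size of their differences. The first 10 were Zfp101, Zfp329, Zfp68, Zfp790, Zfp180, Zfp189, Zfp791, Zfp949, Zfp217 and Zfp141. A KRAB-like stretch was found in 6 of them. Zfp791 reached 1 RPM only in the wild-type library of each line, so the level rule fixed its direction. Zfp101 was at 28.0 RPM in E14 wild type and 17.2 in the knockout, and at 24.2 and 15.7 RPM in JB1. It was 1.63-fold lower in E14 (1.51 to 1.76) and 1.54-fold lower in JB1 (1.44 to 1.66). Zfp329 was at 17.3 and 11.9 RPM in E14 and at 31.7 and 20.5 RPM in JB1, 1.45-fold (1.32 to 1.59) and 1.55-fold lower (1.46 to 1.64). Zfp68 was at 22.5 and 15.7 RPM and at 19.3 and 13.6 RPM, 1.44-fold and 1.43-fold lower. The wild-type and knockout ranges over the lines did not overlap for Zfp101 (24.2 to 28.0 against 15.7 to 17.2 RPM) or for Zfp68 (19.3 to 22.5 against 13.6 to 15.7 RPM). They overlapped for Zfp329. These members were picked for being lower in both lines, and the share of all measured genes with ranges apart was not counted, so this only describes them. The tables of the lines were scaled separately.

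Ranked in the same way, the first 10 members higher in both lines had lower values: Zfp961, Zfp386, Zfp688, Zfp783, Zfp511, Zfp219, Zfp414, Zfp532, Zfp493 and Zfp462. The rank does not require like differences in the lines, and Zfp532 had 0.16 in E14 and 1.02 in JB1. Zfp386 was at 11.7 and 13.9 RPM in E14 and at 10.1 and 12.3 RPM in JB1, 1.19-fold (1.07 to 1.32) and 1.22-fold higher (1.11 to 1.34). Zfp511 was at 4.64 and 5.45 RPM in E14 and at 9.03 and 11.6 RPM in JB1. As a ratio of RPM, the smaller of the folds in the lines reached at most 1.19 among members higher in both (Zfp414). Among members lower in both it reached 1.68 (Zfp791, at 1.45 and 0.863 RPM in E14 and at 1.503 and 0.815 RPM in JB1). Zfp791 reached 1 RPM only in the wild-type library of each line, so the level rule fixed its direction. Next among members lower in both was Zfp101, at 1.54. Neither set was tested as a set.

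**Figure D3:**
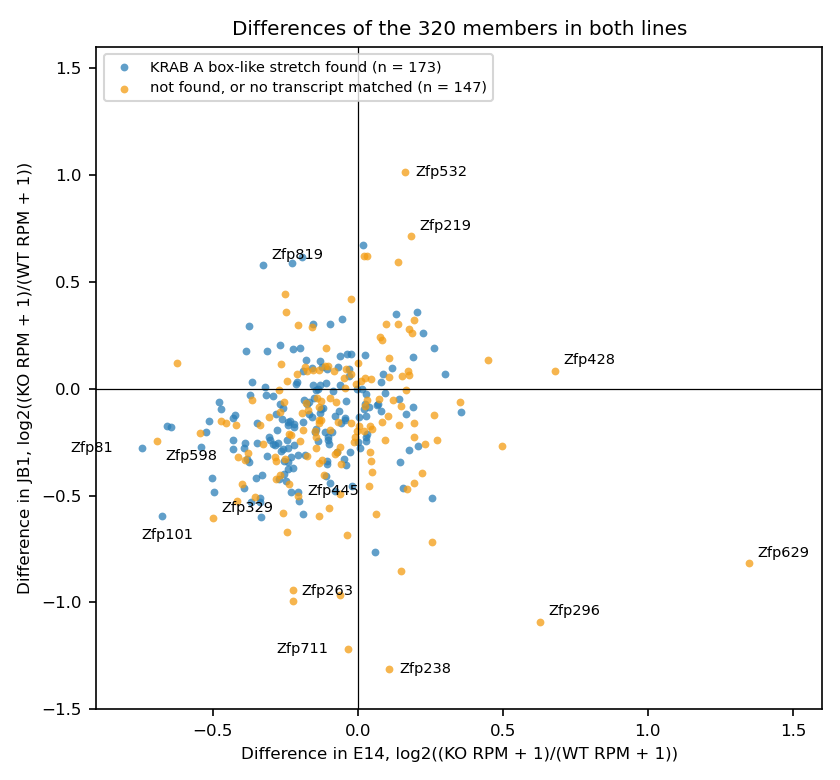
Knockout difference of each of the 320 members in E14 (horizontal) and JB1 (vertical), blue where a KRAB A box-like stretch was found (173) and orange where it was not found or no transcript matched (147). Most points, 171, lie at the lower left and 34 at the upper right, while Zfp629 and Zfp296 lie at the lower right, higher in E14 and lower in JB1.

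Across the 320 members the differences in the lines were weakly related, with a Pearson r of 0.099 and a Spearman rho of 0.222. Over the 11570 other measured genes r was 0.165 and rho 0.205. These are descriptions across genes, which share 4 libraries and are no independent replicates. Zfp629, with 19 fingers, shows how the lines could part. It was at 0.337 RPM in E14 wild type and 2.41 in the knockout, 7.14-fold higher (4.33 to 12.6), and at 6.53 and 3.28 RPM in JB1, 1.99-fold lower (1.72 to 2.31). Its E14 wild-type library was under 1 RPM, so the level rule fixed its direction in E14. Its other levels were all above 2 RPM. Zfp296, a pluripotency-linked factor, was at 15.0 and 23.7 RPM in E14, 1.58-fold higher, and at 52.9 and 24.3 RPM in JB1, 2.17-fold lower.

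The 10 lowest members in E14 were led by genes of chromosome 17, with 5 of the 10, where 42 of all 320 members lie. A KRAB-like stretch was found in 7 of the 10, beside 173 of all 320. Besides Zfp81, Zfp598, Zfp101, Zfp763 and Zfp871 of chromosome 17 they were Zfp74, Zfp395, Zfp248, Zfp2 and Zfp26. Zfp395 (1.39 and 0.552 RPM in E14, 13.7 and 15.0 RPM in JB1) lies on chromosome 14, inside the stretch from 41 to 77 Mb, and Zfp248 (4.44 and 2.74 RPM, 8.24 and 6.65 RPM) on chromosome 6. On these chromosomes the other measured genes were also lower in E14, with medians of -0.25 and -0.28. The 10 lowest in JB1, of which 1 had a KRAB-like stretch, were Zfp238, Zfp711, Zfp296, Zfp263, Zfp787, Zfp521, Zfp750, Zfp629, Zfp612 and Zfp516. Zfp263 was at 27.6 and 23.5 RPM in E14 and at 41.6 and 20.4 RPM in JB1, 1.17-fold and 2.04-fold lower. Without members on chromosome 6 and on chromosome 14 from 41 to 77 Mb, the median in E14 was -0.12 over 302 members, and without chromosome 1 beyond 140 Mb that in JB1 was -0.15 over 319.

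Chromosome 7 carried 73 members, chromosome 17 42 and chromosome 13 32. Runs of at least 3 members with no more than 500 kb between neighbours made 27 clusters of 3 to 19 members, with 169 members in all and 151 outside. The positions are those of the deposited tables (mm9). Members in clusters were lower in 133 of 169 in E14 (78.7%, median -0.15) and in 125 in JB1 (74.0%, median -0.16). Outside clusters 93 of 151 were lower in E14 (61.6%, median -0.06) and 106 in JB1 (70.2%, median -0.13). Median GC content of the transcripts was 42.5% in clusters and 47.9% outside.

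Most clusters held members on both sides of 0, with a median below 0. The cluster median was below 0 in 25 of 27 clusters in E14 and in 25 in JB1, and in 23 in both. It lay below the median of the other genes of the same chromosome in 26 clusters in E14 and 24 in JB1. Where at least 5 other measured genes lay inside the cluster's interval, the members' median was below that of these neighbours in 6 of 7 clusters in each line. Every member was lower in 7 clusters in E14 and in 8 in JB1, 5 of them in both lines, and every member was higher in 1 cluster in E14 and in 0 in JB1. Over all members 70.6% and 72.2% were lower, beside which these cluster counts are to be read. The neighbours of a cluster can share reads through similar sequence, and members of 1 cluster are not replicates.

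**Figure D4:**
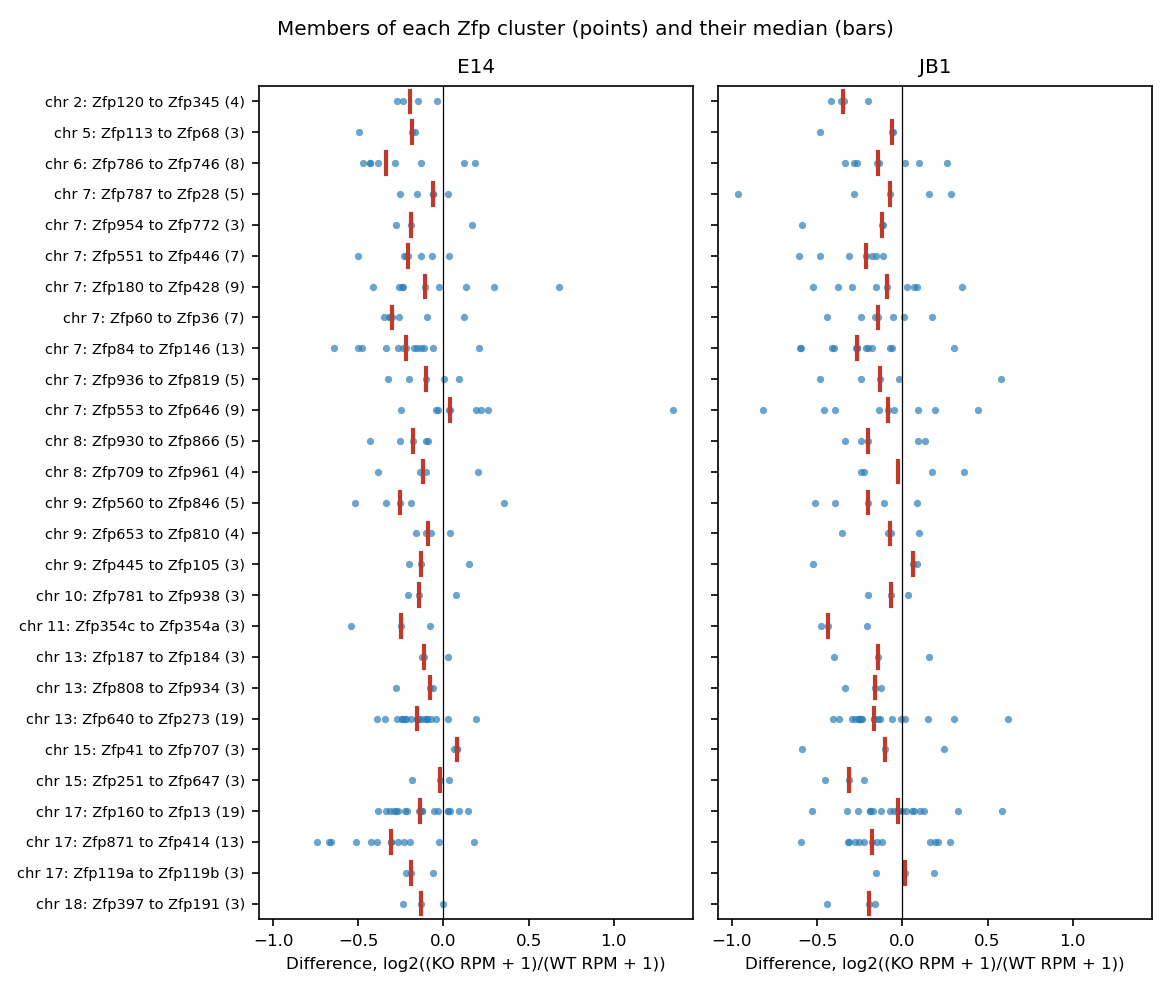
Knockout differences of the members of each of the 27 clusters (blue points) with the cluster median (red bar), E14 left and JB1 right, labelled by chromosome, first and last member and number of members. Red bars lie left of 0 in 25 clusters in each line, and all 13 points but Zfp414 lie left of 0 in E14 in the chromosome 17 cluster from Zfp871 to Zfp414.

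The cluster nearest to Zfp57 had the lowest E14 median of the clusters outside chromosome 6. It runs from 32908181 to 33768724 on chromosome 17, 3.4 to 4.2 Mb before Zfp57, and holds 13 members, of which 12 have a KRAB-like stretch. In E14 12 of 13 were lower with a median of -0.31, and in JB1 9 of 13 with a median of -0.18. The 68 other measured genes 2 to 5 Mb before Zfp57 had medians of 0.03 and -0.04. Only 3 other measured genes lie inside the cluster's interval, with medians of -0.11 in E14 and 0.33 in JB1. Zfp81 was at 16.0 and 9.14 RPM in E14, 1.75-fold lower (1.58 to 1.94), and at 17.1 and 13.9 RPM in JB1, 1.23-fold lower (1.14 to 1.33). Zfp763 was at 8.84 and 5.23 RPM in E14 and at 13.2 and 11.6 RPM in JB1, 1.69-fold and 1.14-fold lower. Zfp871 was at 72.5 and 50.5 RPM in E14 and at 29.5 and 26.5 RPM in JB1. The lone member higher in both, Zfp414 (2.26 and 2.69 RPM, 8.66 and 10.7 RPM), lies at the far end and has 2 fingers and no KRAB-like stretch. Zfp811, Zfp799 and Zfp870 were lower in E14 and higher in JB1, with differences of -0.20, -0.27 and -0.02 and of 0.19, 0.21 and 0.16. Promoter windows with the hexamer were found for 3 of its 12 members with an entry, Zfp472, Zfp763 and Zfp81.

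A larger chromosome 17 cluster, from 21145905 to 23736454 with 19 members, was lower in 14 in E14 (median -0.14) and in 12 in JB1 (median -0.03). It holds the member of greatest contrast there, Zfp946, at 8.06 and 6.75 RPM in E14 and at 8.03 and 12.6 RPM in JB1. In contrast, Zfp760 of the same cluster was at 15.1 and 11.7 RPM in E14 and at 23.5 and 15.9 RPM in JB1, lower in both.

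The cluster around Zfp568 on chromosome 7 (30553571 to 30954746) was among the most uniform of the larger clusters. It has 13 members, of which 12 were lower in each line, with medians of -0.22 and -0.26, and it holds no other measured gene. Zfp84 was at 17.7 and 13.8 RPM in E14 and at 25.7 and 16.6 RPM in JB1, 1.28-fold and 1.55-fold lower. Zfp74 was at 22.5 and 14.1 RPM in E14 and at 16.3 and 14.3 RPM in JB1. The member higher in E14 was Zfp568 and the member higher in JB1 was Zfp30 (1.31 and 1.07 RPM in E14, 2.02 and 2.73 RPM in JB1). The other measured genes of chromosome 7 had medians of 0.05 and 0.04.

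On chromosome 13, 19 members lie between 66771705 and 67927937, of which 18 have a KRAB-like stretch. In E14 17 were lower and in JB1 15, with medians of -0.15 and -0.17. The 7 other measured genes in that interval had medians of -0.08 in E14 and -0.34 in JB1, and in JB1 they were lower than the members. Zfp748 was at 9.85 and 8.29 RPM in E14 and at 16.4 and 12.4 RPM in JB1. Zfp459 went the other way in JB1, at 18.9 and 16.4 RPM in E14 and at 23.4 and 36.5 RPM in JB1, 1.56-fold higher (1.47 to 1.65). Both rows of Zfp708 were lower in E14 (2.52 and 1.91 RPM, 1.53 and 1.29 RPM). In JB1 they were at 6.5 and 5.29 RPM and at 2.18 and 2.17 RPM.

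The clusters in which every member was lower in both lines were small. They lie on chromosome 2 (Zfp120, Zfp937, Zfp442 and Zfp345), chromosome 5 (Zfp113, Zfp157 and Zfp68), chromosome 11 (Zfp354c, Zfp2 and Zfp354a), chromosome 13 (Zfp808, Zfp935 and Zfp934) and chromosome 18 (Zfp397, Zfp35 and Zfp191). The chromosome 18 cluster is included through Zfp35, whose E14 difference of -0.0018 was close to 0. Medians on chromosome 11 were -0.25 and -0.43, those on chromosome 2 -0.19 and -0.35. On chromosome 2 all 5 other measured genes in the interval were lower in both lines as well. Zfp937 was at 5.19 and 4.24 RPM in E14 and at 5.77 and 4.33 RPM in JB1. Zfp354c was at 7.27 and 5.97 RPM in E14 and at 17.7 and 12.9 RPM in JB1. Every member was lower in E14 but not in JB1 in the clusters from Zfp930 to Zfp866 on chromosome 8 and from Zfp119a to Zfp119b on chromosome 17. Every member was lower in JB1 but not in E14 in the clusters from Zfp954 to Zfp772 and from Zfp551 to Zfp446 on chromosome 7 and from Zfp251 to Zfp647 on chromosome 15.

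A few clusters did not follow. On chromosome 15, Zfp41, Zfp623 and Zfp707 were all higher in E14 with differences of 0.08, 0.06 and 0.08, and the 8 other measured genes there had a median of 0.37. The cluster from Zfp553 to Zfp646 on chromosome 7, with 9 members, had a median of 0.04 in E14 and of -0.09 in JB1, and it holds Zfp629. The cluster of Zfp445, Zfp167 and Zfp105 on chromosome 9 had medians of -0.13 and 0.06. For Zfp119a, Zfp959 and Zfp119b on chromosome 17 the medians were -0.19 and 0.02. The chromosome 6 cluster from Zfp786 to Zfp746 (8 members) was below 0 in both lines. It had the lowest E14 median, -0.34, beside -0.28 for the other genes of chromosome 6 in that line, and a JB1 median of -0.14.

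Members and other genes differed in GC content, and the differences of all genes moved with it. Median transcript GC was 45.1% for the members and 50.5% for the other measured genes. Among genes under 42% GC the medians were -0.19 in E14 and -0.16 in JB1 for 113 members, and -0.03 and -0.12 for 1024 other genes. From 42 to 46% they were -0.11 and -0.20 for 57 members, and 0.00 and -0.07 for 1855 others. From 46 to 50% they were -0.12 and -0.18 for 51 members, and 0.01 and -0.02 for 2360 others. At 50% or more they were 0.01 and -0.13 for 95 members, and 0.05 and 0.06 for 5903 others. The members' median was therefore lower than that of other genes in every GC band in both lines, by the least under 42% in JB1 and at 50% or more in E14. Split by the KRAB-like stretch, the E14 medians with and without it were -0.18 and -0.20 under 42%, -0.18 and -0.08 from 42 to 46%, -0.16 and -0.09 from 46 to 50%, and -0.05 and 0.04 at 50% or more. The JB1 medians were -0.15 and -0.20, -0.16 and -0.26, -0.08 and -0.19, and -0.14 and -0.12 in the same bands. With the stretch the median was therefore the lower one in 3 of 4 bands in E14 and in 1 of 4 in JB1. The part of GC content in the differences was not tested beyond these bands.

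**Figure D5:**
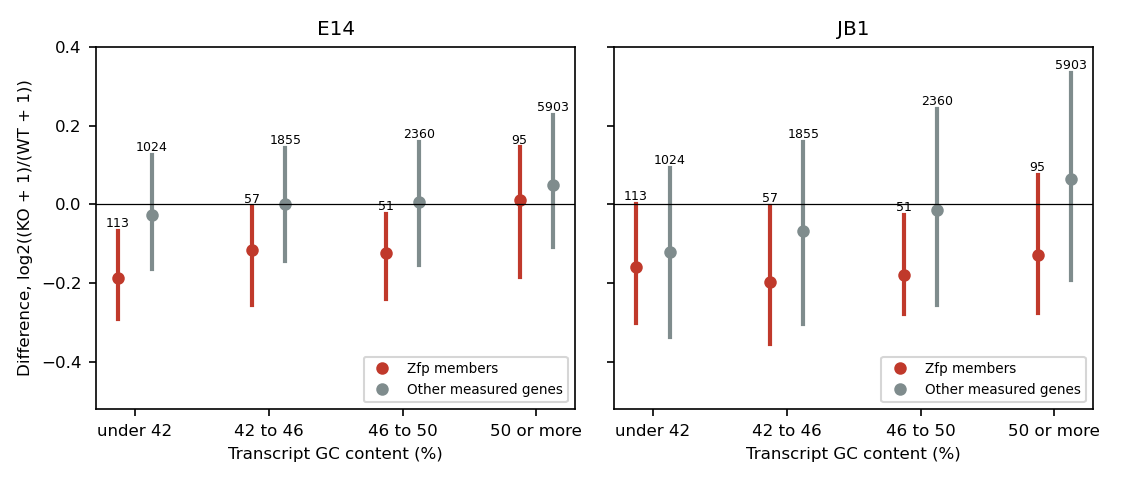
Median (points) and quartiles (bars) of the knockout difference by transcript GC content, members red and other measured genes grey, with the number of genes above each bar, in E14 and JB1. The red median lies below the grey one in all 4 bands of both lines, and in E14 both are highest at 50% or more.

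By level the members' medians lay closer together than by GC content in E14 and further apart in JB1. Members with a mean under 5 RPM had medians of -0.11 in E14 and -0.12 in JB1, those from 5 to 15 RPM -0.13 and -0.14, those from 15 to 40 RPM -0.15 and -0.24, and those at 40 RPM or more -0.09 and -0.16. Other genes had 0.07 and 0.07 in the lowest band and 0.01 and -0.04 in the highest. The members at the highest levels were Zfp568, Zfp106, Zfp534, Zfp600 and Zfp207. Zfp534 was at 231 and 225 RPM in E14 and at 268 and 300.2 RPM in JB1, and Zfp600 at 183 and 174 RPM and at 216 and 232 RPM. Both lie in a stretch of near-identical copies on chromosome 4, so their reads may stem from several genes.

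Genes of the corepressor machinery that KRAB zinc finger proteins use were split between directions. Of 41 measured rows on that list, in which Atf7ip stands in 2, 18 were lower in E14 and 24 in JB1, 11 in both, with medians of 0.03 and -0.07. Trim28, the gene of KAP1, was at 943 and 842 RPM in E14 and at 1397 and 1332 RPM in JB1. Setdb1 was at 111 and 99.2 RPM in E14 and at 101 and 113 RPM in JB1. Dnmt3a, a de novo DNA methyltransferase, was at 24.9 and 27.6 RPM in E14 and at 19.9 and 84.9 RPM in JB1, 4.27-fold higher there (4.03 to 4.52). Dnmt3b was at 47.7 and 67.2 RPM in E14 and at 61.4 and 145 RPM in JB1.

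Other zinc finger families were set beside the members, with no test between them. Of 36 measured Zbtb genes 20 were lower in E14 and 27 in JB1, with medians of -0.09 and -0.27. Of 14 Klf genes 10 and 12 were lower, with medians of -0.12 and -0.31. Of 13 Zscan genes 5 and 3 were lower, with medians of 0.20 and 0.20, the opposite side from the members. Of 18 Zdhhc genes, which encode palmitoyltransferases and bind no DNA, 7 and 10 were lower, with medians of 0.04 and -0.01. For 7 Zkscan genes the numbers were 5 and 4, with medians of -0.19 and -0.06. For 10 Prdm genes they were 8 and 6 (-0.02 and -0.17), and for 14 Zc3h genes 9 and 8 (-0.02 and -0.09). For 3 Zmynd genes they were 2 and 1 (-0.08 and 0.07).

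Reads of similar genes could not be kept apart with certainty. The counting tool, its strand setting and its handling of reads with more than 1 match were not stated in the labels or tables. Pairs with near-identical copies, such as Zfp955a and Zfp955b, Zfp874a and Zfp874b, or Zfp119a and Zfp119b, are therefore uncertain as single genes. The same holds for members whose intervals overlap, such as Zfp668 and Zfp646, Zfp783 and Zfp956, Zfp420 and Zfp27, Zfp58 and Zfp87, and Zfp595, Zfp953 and Zfp456.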

How the data were processed

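RNA of 4 embryonic stem cell libraries, 1 per line and genotype, was analysed from the values the authors deposited. Groups came from the sample titles. The deposited values are log2 of reads per 1000000 reads of a library total, not corrected for gene length. The submitters' processing notes name TopHat2 2.0.8b, cutadapt, CASAVA 1.8.2 and the build mm9. No source used here gives the annotation or the counting. Genes with no read carry the value of 0.9 read, and 100% of the other values came out as whole reads within 0.0001. The totals behind the scaling were 50478922 and 70691473 reads in E14 and 69204114 and 96996280 in JB1. The unit is log2, so no count model was run.

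Fold values are ratios of RPM with 95% exact conditional binomial (Clopper-Pearson) intervals on recovered reads. They cover counting error only, since reads carry no molecular identifiers and may be copies of 1 molecule. The difference on the log2(RPM + 1) scale understates changes of low genes. limma 3.58.1 (R 4.3.3) tested the genotype with the line as a term, over genes whose mean reached 1 RPM, with a mean-variance trend and Benjamini-Hochberg adjustment, and the lines were the only replication. The script was checked on simulated data. Fingers (2 cysteines and 2 histidines at the usual spacing) and the KRAB A box-like stretch (at least 12 of 19 conserved positions) were sought in the longest reading frame of GENCODE M21 transcripts. The design had named RefSeq proteins, and reading frames were used in their place. GC content came from the same transcripts, for 316 members (98.8%) and 96.4% of the measured genes. Promoters came from RefSeq (GRCm38.p6). All other positions are those of the deposited tables.

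The members and the gene lists were chosen with earlier results of these data known. Members named were, in each line, the 10 with the highest and the 10 with the lowest difference. Of those higher in both lines, and of those lower in both, the first 10 by the smaller difference were named. Added were the 5 most opposite, members of clusters moving one way, the 5 at the highest level, and those on the function lists. Zfp760, Zfp748, Zfp30 and the other cluster members named beyond this rule were chosen after their values were seen. Alternatives were other pseudocounts, level minimums, scalings, fold limits and cluster gaps.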

Additional observations from a re-analysis of the deposited data

Results flagged for a closer look

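Zfp629, Zfp296 and Zfp819 were set apart because the knockout library stood on opposite sides of the wild type in the 2 lines with a difference of at least 0.32 in size in each. The difference between the lines was not tested, since each line had 1 library per genotype.

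Zfp629 had a difference of 1.35 in E14 and of -0.82 in JB1. In E14 it reached 1 RPM only in the knockout library, so the level rule fixed its direction there. With a pseudocount of 5 its E14 difference was 0.47. Zfp296 had 0.63 in E14 and -1.09 in JB1. Zfp819, a KRAB zinc finger gene of the stem cell and germ line, had -0.32 in E14 (13.5 and 10.5 RPM) and 0.58 in JB1 (6.63 and 10.4 RPM).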

How the results depend on the processing

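The medians stayed below 0 in both lines under every alternative run, between -0.15 and -0.08 in E14 and between -0.17 and -0.11 in JB1. The largest shift was that of E14 with a pseudocount of 5, to -0.076. Between 68.4% and 74.0% of the members were lower in E14 and between 69.3% and 74.5% in JB1. The count of clusters with a median below 0 stayed within 1.5 times with gaps of up to 1 Mb and with a pseudocount of 5. Counts past 2-fold rest on few genes. With a pseudocount of 5, 0 members were higher in E14, 0 higher in JB1 and 1 lower in JB1. With a pseudocount of 0.5, 6 were lower in JB1, as with scaling to the reads in listed genes (6). A minimum of 5 RPM left 0 higher in E14. At 1.5-fold the counts were 3 higher and 6 lower in E14, and 8 higher and 18 lower in JB1. The limma test called 0 members in all 7 settings, with a lowest adjusted p between 0.576 and 0.667, and 11 to 20 at an unadjusted p under 0.05. Scaling to the listed genes moved the median of all measured genes by -0.02 in E14 and -0.01 in JB1.

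The limma fit took the line as a term, so it compared the genotypes within each line, and the labels give no replicate numbers for any other pairing. Levels near 1 RPM rest on 50.5 to 97.0 reads. With 1 library per group, differences between cultures or clones cannot be told apart from the genotype.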

Other observations

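By chromosome, the members' balance varied. On chromosome 5, 14 of 17 members were lower in each line, with medians of -0.09 in E14 and -0.15 in JB1, beside 0.05 and 0.03 for the 752 other measured genes of that chromosome. On chromosome 13 it was 27 and 25 of 32, and on the X chromosome 6 of 7 in each line. Chromosome 15 stood on the other side in E14, where 3 of 10 members were lower with a median of 0.07, while 7 of 10 were lower in JB1. On chromosome 16 4 of 5 members were lower in both lines, with medians of -0.17 and -0.50, beside 0.02 and 0.02 for 360 other genes.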
